A study of Mus musculus with 12 samples.

Results

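The vascular endothelial growth factor (VEGF) and angiopoietin system was followed through 10 genes chosen by symbol: the ligands Vegfa, Pgf, Angpt1 and Angpt2, the receptor tyrosine kinases Kdr, Flt1, Flt4, Tek and Tie1, and the co-receptor Nrp1. They were 10 of the 21956 genes in the table, and all 10 passed the filter on low counts in every comparison. The libraries came from mouse brain tissue next to an intracerebral hemorrhage (ICH), taken 48 h after collagenase was injected into the right striatum, and from sham mice that had the operation but no collagenase. Both surgeries were done in mice carrying floxed alleles of Fabp4, a fatty acid carrier: Fabp4fl_fl mice were the controls, and Fabp4CKO mice were Fabp4flox/flox with TMEM119creER/+, an inducible Cre driven by a microglial promoter. Fabp4CKO mice received tamoxifen for 7 days and were operated on 14 days after the last injection. Whether Fabp4fl_fl mice carried the Cre or received tamoxifen is not given in the sources used here, and an age and sex are given only for wild-type C57BL/6J mice. Each of the 4 groups held 3 mice, with 1 poly(A) RNA library per mouse.

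VEGF ligands act on endothelial receptors to drive vessel growth and to loosen the junctions between endothelial cells. Vegfa signals mainly through Kdr, while Flt1 binds Vegfa and Pgf tightly and holds back part of the Vegfa signal, and Flt4 is the receptor for Vegfc and Vegfd. Angpt1, made largely by cells around the vessel, activates the receptor Tek and stabilizes vessels, whereas Angpt2, stored in endothelial cells, often opposes Angpt1 at Tek, and Tie1 is a partner of Tek with no well-defined ligand of its own.

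The 12 libraries held 15650813 to 22406216 counts, and 12 of 12 had counts for each member. Fabp4, the targeted gene, had 1 to 2 counts in Sham-Fabp4fl_fl, 0 in each Sham-Fabp4CKO library, 24 to 63 in ICH-Fabp4fl_fl and 3 to 10 in ICH-Fabp4CKO. A lower Fabp4 level in knockout mice could therefore be looked for mainly after ICH. There it was lower without overlap (log2 -2.94 ± 0.62, SE) but did not pass the edgeR test (adjusted p = 0.295). The part of each cell type in the Fabp4 counts was not tested. Summed markers of choroid plexus were 827 to 3089 CPM (TMM-normalized counts per 1000000 counts) in Sham-Fabp4fl_fl against 11.03 to 25.4 CPM in the other 9 libraries. The mitochondrial share was 16.3% in ICH-Fabp4fl_fl mouse 1 and 7.90 to 11.9% in all other libraries, and ICH-Fabp4CKO mouse 1 had 1 count on Y-linked genes where the others had 1302 to 2251. The 8 endothelial markers (Pecam1, Cdh5, Cldn5, Emcn, Erg, Egfl7, Esam and Vwf) were detected in every group. Their summed level was 138 to 163 CPM in Sham-Fabp4fl_fl, 127 to 133 CPM in Sham-Fabp4CKO, 507 to 1448 CPM in ICH-Fabp4fl_fl and 225 to 404 CPM in ICH-Fabp4CKO. In bulk tissue, more endothelial cells and more RNA per endothelial cell cannot be told apart.

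Promoter sequences are shown for 5 members whose counts moved by different amounts: Vegfa and Pgf as the VEGF ligands, and Kdr, Flt1 and Tie1 as receptors. Each is the 250 bases before the first listed RefSeq start (GRCm38.p6), written 5′ to 3′ on the gene's own strand. Capitals mark the searched motifs on either strand: the core of the hypoxia response element (ACGTG or GCGTG), a core of ETS factor sites (CCGGAA or AGGAAG) and the TATA box (TATAAA).
Vegfa, chr17:46032378-46032627, minus strand: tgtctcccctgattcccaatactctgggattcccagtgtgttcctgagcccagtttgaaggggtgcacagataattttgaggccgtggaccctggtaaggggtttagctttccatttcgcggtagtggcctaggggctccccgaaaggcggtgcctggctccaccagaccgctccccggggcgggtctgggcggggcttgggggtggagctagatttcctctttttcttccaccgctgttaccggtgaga
Pgf, chr12:85177314-85177563, minus strand: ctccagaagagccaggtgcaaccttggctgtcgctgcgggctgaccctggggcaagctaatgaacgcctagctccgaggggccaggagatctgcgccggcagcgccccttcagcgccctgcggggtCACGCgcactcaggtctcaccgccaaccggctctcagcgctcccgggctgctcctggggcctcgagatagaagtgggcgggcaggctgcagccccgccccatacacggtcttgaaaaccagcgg
Kdr, chr5:75978456-75978705, minus strand: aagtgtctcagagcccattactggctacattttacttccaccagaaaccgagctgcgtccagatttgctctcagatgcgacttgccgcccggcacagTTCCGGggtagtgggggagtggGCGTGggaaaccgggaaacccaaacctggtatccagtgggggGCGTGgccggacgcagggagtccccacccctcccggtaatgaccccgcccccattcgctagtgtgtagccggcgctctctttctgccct
Flt1, chr5:147726012-147726261, minus strand: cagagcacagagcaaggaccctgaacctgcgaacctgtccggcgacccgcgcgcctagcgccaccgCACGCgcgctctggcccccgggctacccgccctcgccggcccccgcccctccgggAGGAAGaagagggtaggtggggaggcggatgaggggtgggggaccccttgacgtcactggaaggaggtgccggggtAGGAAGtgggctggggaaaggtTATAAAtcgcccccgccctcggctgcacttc
Tie1, chr4:118489850-118490099, minus strand: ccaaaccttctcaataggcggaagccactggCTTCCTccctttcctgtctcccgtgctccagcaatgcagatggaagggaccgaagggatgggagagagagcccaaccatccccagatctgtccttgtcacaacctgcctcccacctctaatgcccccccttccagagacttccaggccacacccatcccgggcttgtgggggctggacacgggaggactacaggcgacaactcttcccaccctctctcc

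The Pgf window held 1 hypoxia core, 124 bases before the start. The Kdr window held hypoxia cores at 131 and 89 bases before the start and an ETS core at 153. In the Flt1 window there were a hypoxia core at 184 bases, ETS cores at 129 and 53 bases and a TATA box at 31 bases. The Tie1 window held an ETS core at 219 bases, and none of these letters occurred in the Vegfa window shown. RefSeq lists 2 starts each for Vegfa and Pgf. The windows before the second starts, the first Pgf window and the Nrp1 and Flt4 windows (not shown) lie within the gene coordinates given below. So does most of the Tie1 window, and the last few bases of the Kdr window. The second Vegfa window, chr17:46025164-46025413, held hypoxia cores at 218 and 211 bases, while that of Pgf held no searched motif. Among the 8 members with a RefSeq window, 4 held a hypoxia core, 4 an ETS core and 1 a TATA box, counting the first start of each, beside 38.6%, 38.2% and 12.4% of all 32851 windows of the same length, which include further starts of the same gene. With either start counted, 5 members held a hypoxia core, Vegfa only in the window inside the gene. No motif matches overlapped in the members' windows, and a match describes letters, not a bound site. For Angpt1 and Angpt2 no sequence is shown. In GRCm38 the ligand genes lie at chr17:46016993-46032369 (Vegfa), chr12:85166635-85177790 (Pgf), chr15:42424723-42676977 (Angpt1) and chr8:18690263-18741562 (Angpt2). The VEGF receptor genes lie at chr5:75932827-75978458 (Kdr), chr5:147561604-147726011 (Flt1) and chr11:49609263-49652739 (Flt4). Nrp1 lies at chr8:128358604-128503363, Tek at chr4:94739289-94874976 and Tie1 at chr4:118471191-118490061.

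In sham tissue Vegfa was the most abundant member per kilobase of merged exons, followed by Flt1. Vegfa averaged 11.4 ± 2.14 CPM per kb (SD, n = 3) and Flt1 6.84 ± 0.158 in Sham-Fabp4fl_fl, and 10.7 ± 0.777 and 6.52 ± 0.315 in Sham-Fabp4CKO. Neither overlapped its neighbour in the order in either sham group. Tek came next, at 4.23 ± 0.731 and 3.44 ± 0.14 CPM per kb, while Angpt1, Angpt2, Pgf and Flt4 took the last 4 places in both groups, with overlapping neighbours between 0.5 ± 0.241 and 1.06 ± 0.639 CPM per kb. After ICH the order changed. Tie1 led in ICH-Fabp4fl_fl at 14.7 ± 7.04 CPM per kb, and each member overlapped the next one down to Flt4, which did not overlap Angpt1 in last place. Nrp1 led in ICH-Fabp4CKO at 11.2 ± 8.94 CPM per kb. There Flt1 (6.54 ± 0.531) did not overlap Tie1 below it (4.36 ± 0.666), and all other neighbours overlapped.

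The comparison of ICH-Fabp4fl_fl with Sham-Fabp4fl_fl asked how the hemorrhage altered these genes in the floxed control mice. The 5 receptor kinases, Nrp1, Pgf and Angpt2 rose, whereas Vegfa and Angpt1 overlapped their sham ranges and did not pass the test. In this comparison 8 of 10 members rose and none fell at an adjusted p under 0.05, where 26.2% of all genes tested rose and 45.6% changed in either direction. The median log2 fold change was 1.40 over the members and 0.02 over all genes. All 8 lay above every sham library, which 34.4% of all genes did.

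Vegfa was measured at 52.4, 55.9 and 38.6 CPM in Sham-Fabp4fl_fl mice 1, 2 and 3, and at 52.4, 42.0 and 51.2 CPM in ICH-Fabp4fl_fl mice 1, 2 and 3. The groups overlapped. Its log2 fold change was -0.05 ± 0.18 (SE, adjusted p = 0.837), with a 95% interval from -0.47 to 0.37. Pgf, the placental growth factor that binds Flt1, was 3.13, 3.12 and 1.55 CPM in sham and 28.1, 15.1 and 6.75 CPM after ICH. Even the lowest ICH library was above the highest sham library, and mouse 1 was highest. Pgf rose 6.14-fold (log2 fold change 2.62 ± 0.53, adjusted p = 0.00734), and by 2.03 on the log2 scale without ICH mouse 1 (adjusted p = 0.015).

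Among the VEGF receptors, Kdr was 21.3, 23.7 and 27.4 CPM in sham and 101, 80.7 and 49.7 CPM after ICH. It rose 3.10-fold (log2 1.63 ± 0.25, adjusted p = 0.00248). Flt4 was 6.79, 6.68 and 4.96 CPM in sham and 31.1, 22.6 and 16.2 CPM after ICH, with every ICH library above every sham library. Flt4 rose 3.67-fold (log2 1.87 ± 0.26, adjusted p = 0.00166). Flt1 started from a higher level and moved less. It was 93.9, 93.2 and 89.9 CPM in sham, a narrow range, and 193, 134 and 118 CPM after ICH. Flt1 rose 1.56-fold (log2 0.64 ± 0.19, adjusted p = 0.029), a call that was lost when any of the 3 sham mice or ICH mouse 2 was left out (adjusted p 0.0668 to 0.104). In those fits the share of all genes called fell as well, from 45.6% to between 28.0% and 35.5%. The counts are per gene, so the soluble and membrane-bound products of Flt1 were not separated.

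Nrp1, which presents Vegfa to Kdr and also serves semaphorins, was 17.2, 25.03 and 18.4 CPM in sham and 38.6, 37.5 and 25.4 CPM after ICH. The lowest ICH library lay just above the highest sham library. Nrp1 rose 1.62-fold (log2 0.70 ± 0.21, adjusted p = 0.0315), but the call was lost without sham mouse 1 or 3, without ICH mouse 1 or 2 (adjusted p 0.0935 to 0.125), and with all 12 libraries in the fit (adjusted p = 0.239). Of all genes, 28.0% to 36.2% were called in those fits without a mouse, and 49.0% with all 12 libraries.

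On the angiopoietin side, Angpt2 was 6.60, 2.90 and 2.22 CPM in sham and 44.2, 23.8 and 16.8 CPM after ICH. It rose 6.94-fold (log2 2.80 ± 0.50, adjusted p = 0.00441), the greatest fold among the members in this comparison. Angpt1 was 4.09, 6.74 and 2.38 CPM in sham and 6.12, 9.04 and 4.41 CPM after ICH, with overlapping groups. Its log2 fold change was 0.52 ± 0.42 (adjusted p = 0.336, 95% interval -0.47 to 1.51). Both Tie receptors rose. Tek was 21.7, 22.1 and 15.9 CPM in sham and 63.0, 42.3 and 33.3 CPM after ICH, a 2.25-fold rise (log2 1.17 ± 0.24, adjusted p = 0.00852). Tie1 was 13.1, 15.5 and 12.3 CPM in sham and 107, 72.9 and 37.6 CPM after ICH, a 5.11-fold rise (log2 2.36 ± 0.34, adjusted p = 0.00203). For the 8 members that rose, mouse 1 was the highest and mouse 3 the lowest ICH library. The endothelial marker sum had that order too, at 1448, 856 and 507 CPM. So did the monocyte and macrophage sum (3410, 2438 and 1170 CPM) and those of pericyte, smooth muscle, fibroblast, neutrophil, oligodendrocyte and choroid plexus markers. Neuron (847, 1431 and 2114 CPM) and striatal neuron marker sums ran the other way. Those of astrocytes, microglia and lymphatic endothelium had neither order. Smooth muscle markers summed to 28.6 to 49.9 CPM in sham and 130 to 399 CPM after ICH, and pericyte markers to 207 to 259 CPM and 512 to 803 CPM. The part of these cells, and of the choroid plexus signal of the sham libraries, in these results was not tested.

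**Figure D1:**
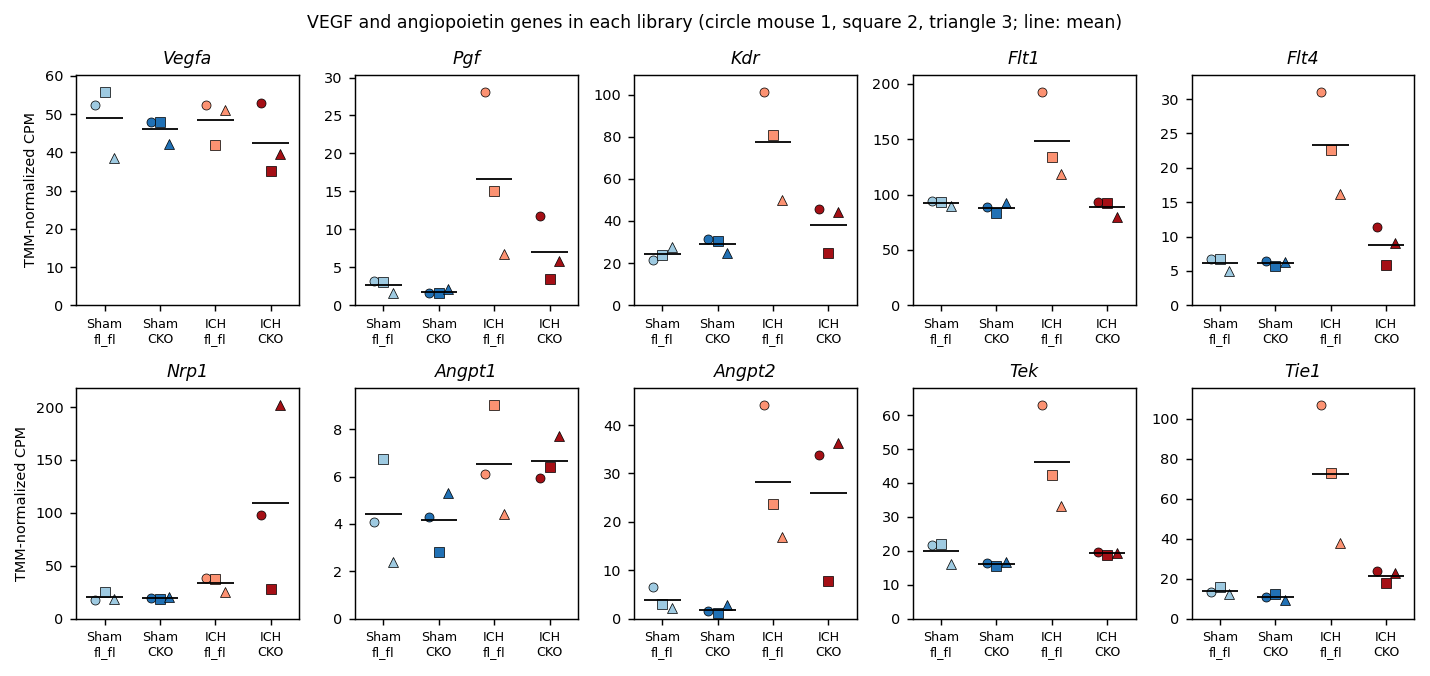
TMM-normalized CPM (vertical axes from 0, own scale per gene) of the 10 members in each library, by group, with the mean as a line and symbols for mice 1 to 3. Vegfa covers about the same range in the 4 groups, the 5 receptor kinases are highest in ICH-Fabp4fl_fl, and Nrp1 reaches 97.8 and 202 CPM in 2 ICH-Fabp4CKO mice.

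The same surgery was then compared in knockout mice, ICH-Fabp4CKO against Sham-Fabp4CKO. Pgf, Angpt2, Nrp1 and Tie1 rose, whereas Vegfa, Angpt1, Kdr, Flt1, Flt4 and Tek did not pass the test. That made 4 of 10 members called, all higher, beside 24.5% of all genes called higher and 35.6% in either direction. The median log2 fold change was 0.60 over the members and 0.01 over all genes. There were 6 members above every sham library, against 33.2% of all genes. The 4 calls were sensitive to which mice were included: leaving out any 1 of the Sham-Fabp4CKO mice left 0 calls, and there was 1 without ICH-Fabp4CKO mouse 1, 3 without mouse 3 and 6 without mouse 2. The share of all genes called moved with them, from 35.6% to between 5.03% and 5.66% without a Sham-Fabp4CKO mouse, and to 10.6%, 20.4% and 67.5% without ICH-Fabp4CKO mouse 1, 3 and 2.

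Angpt2 was 1.52, 1.16 and 2.85 CPM in Sham-Fabp4CKO mice and 33.7, 7.83 and 36.2 CPM in ICH-Fabp4CKO mice, with mouse 2 well below the other two. It rose 14.03-fold (log2 3.81 ± 0.68, adjusted p = 0.012). Pgf was 1.57, 1.66 and 2.11 CPM in sham and 11.7, 3.52 and 5.79 CPM after ICH, a 3.92-fold rise (log2 1.97 ± 0.47, adjusted p = 0.0256) that was 1.38 on the log2 scale without ICH mouse 1 (adjusted p = 0.0619). Tie1 was 11, 12.5 and 9.38 CPM in sham and 24.0, 17.7 and 22.6 CPM after ICH. All 3 ICH mice were above the sham mice, and Tie1 rose 1.96-fold (log2 0.97 ± 0.18, adjusted p = 0.0137).

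Nrp1 was 19.5, 18.1 and 20.3 CPM in Sham-Fabp4CKO and 97.8, 28.1 and 202 CPM in ICH-Fabp4CKO, so that the ICH mice spanned a wider range than for any other member. It rose 5.68-fold (log2 2.51 ± 0.66, adjusted p = 0.033). Monocyte and macrophage markers in the same ICH mice summed to 6502, 1296 and 10640 CPM, in the order of Nrp1, and fibroblast markers to 427, 35.1 and 799 CPM. Microglia (2601, 1311 and 3892 CPM), neutrophil and pericyte marker sums had that order too. The sums of neuron (1335, 2856 and 1005 CPM), striatal neuron, astrocyte and oligodendrocyte markers had the reverse order. Endothelial, lymphatic endothelial, smooth muscle and choroid plexus sums had neither order. The part of these cell types in the Nrp1 level was not tested. Without ICH-Fabp4CKO mouse 3 the Nrp1 log2 fold change was 1.68 (adjusted p = 0.0629).

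Vegfa was 48.1, 47.9 and 42.2 CPM in sham and 52.9, 35.1 and 39.6 CPM after ICH in knockout mice (log2 -0.11 ± 0.18, adjusted p = 0.621, 95% interval -0.54 to 0.32). Flt1 was 88.6, 83.5 and 92.0 CPM in sham and 92.9, 92.1 and 80.1 CPM after ICH. The Flt1 groups coincided, with a log2 fold change of 0.01 ± 0.12 (adjusted p = 0.965, 95% interval -0.27 to 0.29) whose sign turned under other normalizations. Kdr was 31.4, 30.7 and 24.6 CPM in sham and 45.7, 24.8 and 44.1 CPM after ICH (log2 0.40 ± 0.26, adjusted p = 0.234). Flt4 was 6.38, 5.78 and 6.30 CPM in sham and 11.4, 5.81 and 9.02 CPM after ICH (log2 0.51 ± 0.27, adjusted p = 0.163). For both receptors ICH mouse 2 lay within the sham range and the other 2 ICH mice above it, and without mouse 2 both passed the test (adjusted p = 0.00354 for Kdr and 0.00797 for Flt4). Tek was 16.5, 15.5 and 16.7 CPM in sham and 19.7, 18.7 and 19.3 CPM after ICH, and Angpt1 was 4.30, 2.82 and 5.33 CPM and 5.95, 6.39 and 7.71 CPM. Each lay above sham in all 3 mice without passing the test (log2 0.25 ± 0.12, adjusted p = 0.127 for Tek, and 0.69 ± 0.28, adjusted p = 0.0894 for Angpt1).

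**Figure D2:**
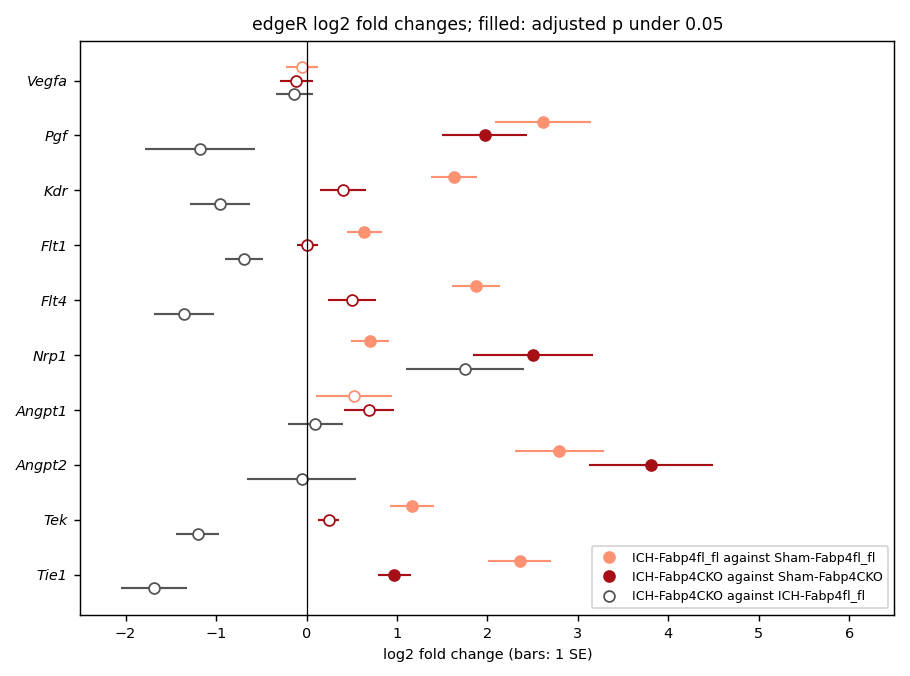
edgeR log2 fold changes (horizontal axis) with bars of 1 SE for each member in 3 comparisons of 3 against 3 mice, with filled symbols where the adjusted p is under 0.05. The 5 receptor kinases lie to the right of 0 in ICH-Fabp4fl_fl against sham and to the left in ICH-Fabp4CKO against ICH-Fabp4fl_fl, where no symbol is filled.

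The direct comparison of ICH-Fabp4CKO with ICH-Fabp4fl_fl asked whether loss of microglial Fabp4 altered the genes after hemorrhage. Levels of the 5 receptor kinases were lower in the knockout mice without overlap between the groups, but no member passed the adjusted test by edgeR. None of the 14600 genes tested was called (0%), while 12.2% had an unadjusted p under 0.05. Below that unadjusted threshold there were 5 members lower (Kdr, Flt1, Flt4, Tek and Tie1) and 1 higher (Nrp1), beside 5.82% of all genes lower and 6.36% higher. The 5 receptor kinases were also the members that lay below every ICH-Fabp4fl_fl library, which 11.5% of all genes did. The median log2 fold change was -0.82 over the members and 0.06 over all genes.

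Tie1 spanned 17.7 to 24.0 CPM in ICH-Fabp4CKO against 37.6 to 107 CPM in ICH-Fabp4fl_fl (log2 -1.69 ± 0.36, adjusted p = 0.295). Tek spanned 18.7 to 19.7 CPM against 33.3 to 63.0 CPM (log2 -1.20 ± 0.23, adjusted p = 0.295). Flt4 spanned 5.81 to 11.4 CPM against 16.2 to 31.1 CPM (log2 -1.35 ± 0.33, adjusted p = 0.308). The distance between groups was smaller for the other two VEGF receptors. Kdr differed by -0.95 ± 0.33 on the log2 scale (adjusted p = 0.355) and Flt1 by -0.69 ± 0.21 (adjusted p = 0.339). Calls depended on the model. DESeq2 called Flt4, Tek and Tie1 lower (adjusted p = 0.0132, 0.00206 and 0.003), and edgeR with all 12 libraries in 1 fit called Flt1, Flt4, Tek and Tie1 (adjusted p = 0.0464, 0.0379, 0.0254 and 0.028). By these models 1.84% and 1.38% of all genes tested were called lower.

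Among the ligands, Vegfa differed by -0.14 ± 0.20 (adjusted p = 0.813), Angpt1 by 0.10 ± 0.30 (adjusted p = 0.923) and Angpt2 by -0.05 ± 0.60 (adjusted p = 0.979), with overlapping groups. The 95% interval was -0.63 to 0.35 for Vegfa, but -1.499 to 1.39 for Angpt2, which leaves room for a sizeable difference in either direction. Pgf was lower in the fit, as the receptors were, by -1.18 ± 0.61 (adjusted p = 0.481), and by -0.60 without ICH-Fabp4fl_fl mouse 1. Nrp1 was 3.37-fold higher by the fit (log2 1.75 ± 0.65, adjusted p = 0.369), with ICH-Fabp4CKO mouse 2 inside the range of ICH-Fabp4fl_fl. Without ICH-Fabp4CKO mouse 3, which had the highest Nrp1 level, the log2 difference was 0.95 (adjusted p = 0.671), and without mouse 2 it was 2.21 (adjusted p = 0.0697).

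In sham tissue all 10 members overlapped in CPM between Sham-Fabp4CKO and Sham-Fabp4fl_fl, where 14.8% of all genes did not, and by edgeR none was called or had an unadjusted p under 0.05, beside 0.111% of all genes called and 10.2% with such a p. DESeq2 called none either. The log2 differences ran from -1.07 ± 0.49 for Angpt2 (adjusted p = 0.49) to 0.27 ± 0.14 for Kdr (adjusted p = 0.511). Tek was called lower without Sham-Fabp4fl_fl mouse 3 (log2 -0.42, adjusted p = 0.0205). In that fit 9.12% of all genes were called lower and 10.5% higher.

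The interaction of ICH and genotype tested the difference between both ICH responses over all 12 libraries. No member was called by edgeR or by DESeq2, beside 0.0199% of all genes by edgeR and 1.41% by DESeq2. At an unadjusted p under 0.05 the same 5 receptor kinases were lower and Nrp1 was higher, beside 4.37% of all genes lower and 5.57% higher. The interaction on the log2 scale was -1.44 ± 0.43 for Tie1 (adjusted p = 0.327), -1.42 ± 0.40 for Flt4 (adjusted p = 0.307), -1.28 ± 0.39 for Kdr (adjusted p = 0.33), -0.97 ± 0.30 for Tek (adjusted p = 0.331) and -0.68 ± 0.23 for Flt1 (adjusted p = 0.374). For Nrp1 it was 1.76 ± 0.72 (adjusted p = 0.444), with a range of 0.96 to 2.22 when a mouse was left out. The lowest value was without ICH-Fabp4CKO mouse 3 (adjusted p = 0.686) and the highest without ICH-Fabp4CKO mouse 2, where Nrp1 passed the test (adjusted p = 0.0276) and 2.42% of all genes did.

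The balance between paired genes was read within each library as a ratio of counts, which needs no scaling between libraries. The ratios are not corrected for gene length and are read only for how they differ between groups. The ratio of Angpt2 to Angpt1 counts was 1.61, 0.433 and 0.935 in Sham-Fabp4fl_fl, 0.358, 0.417 and 0.536 in Sham-Fabp4CKO, 7.18, 2.62 and 3.80 in ICH-Fabp4fl_fl and 5.65, 1.22 and 4.69 in ICH-Fabp4CKO. ICH-Fabp4CKO mouse 2 overlapped the Sham-Fabp4fl_fl range, and the other 5 ICH libraries were above every sham library. The balance moved toward Angpt2. Averaged over genotypes, the ratio was 5.95-fold higher after ICH (log2 difference 2.57, exact two-sided permutation test within genotype, p = 0.005, the smallest this design allows, adjusted p = 0.015 over 6 ratio tests).

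Pgf gained on Vegfa in the same way. The ratio of Pgf to Vegfa counts was 0.0408 to 0.0602 in Sham-Fabp4fl_fl, 0.0332 to 0.0506 in Sham-Fabp4CKO, 0.132 to 0.537 in ICH-Fabp4fl_fl and 0.101 to 0.221 in ICH-Fabp4CKO. All 6 ICH libraries were above all 6 sham libraries, with a 4.67-fold higher ratio (log2 2.22, exact permutation p = 0.005, adjusted p = 0.015). The ratio of Flt1 to Kdr was 3.28 to 4.41 in Sham-Fabp4fl_fl and 1.66 to 2.38 in ICH-Fabp4fl_fl. In knockout mice it was 2.72 to 3.73 in sham and 1.81 to 3.71 after ICH, with ICH-Fabp4CKO mouse 2 at the sham level. The average log2 difference was -0.66 (exact permutation p = 0.015, adjusted p = 0.03), and it missed the threshold without ICH-Fabp4CKO mouse 1 or 3 (p = 0.055 each). Between the genotypes after ICH, none of the 3 ratios reached the threshold. The log2 differences were -0.38 for Angpt2 to Angpt1 (p = 0.7), -0.99 for Pgf to Vegfa (p = 0.3) and 0.29 for Flt1 to Kdr (p = 0.6), in an exact permutation test that cannot go below 0.1.

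**Figure D3:**
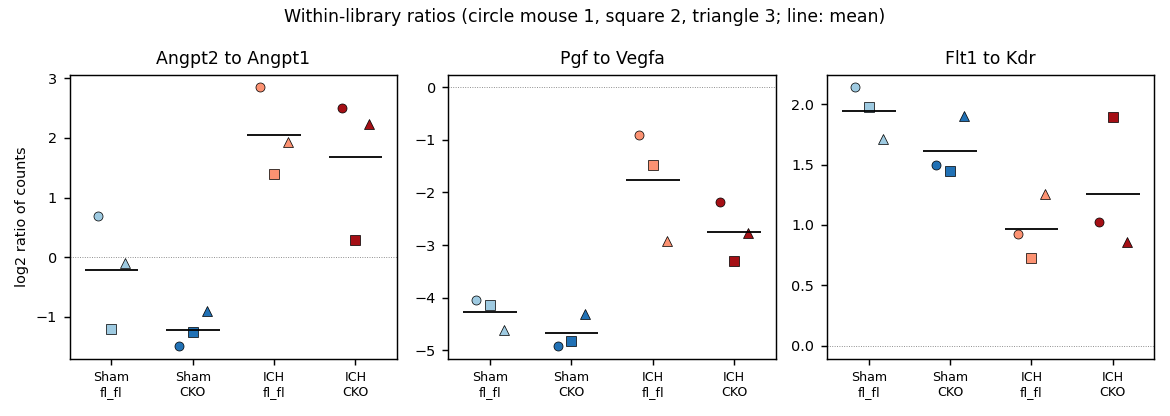
Log2 ratios of counts (0.5 added to each) of 3 gene pairs in each library, with group means as lines and symbols for mice 1 to 3. Angpt2 to Angpt1 and Pgf to Vegfa are higher after ICH in both genotypes, and Flt1 to Kdr is lower after ICH except in ICH-Fabp4CKO mouse 2.

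Because the endothelial markers moved with the receptors, each member was also expressed relative to the mean log2 CPM of the 8 markers in the same library. That mean was 2.32 higher in ICH-Fabp4fl_fl than in Sham-Fabp4fl_fl, 1.15 higher in ICH-Fabp4CKO than in Sham-Fabp4CKO and 1.38 lower in ICH-Fabp4CKO than in ICH-Fabp4fl_fl, without overlap in any of these. These are log2 differences given as a description, with no test. The 8 markers did not move alike. Their edgeR log2 fold changes ran from 1.74 to 3.59, from 0.088 to 2.40 and from -2.15 to -0.92 in the same 3 comparisons. The level of Tie1 relative to the markers was -0.23 ± 0.23 (SD, n = 3) in Sham-Fabp4fl_fl, -0.33 ± 0.16 in Sham-Fabp4CKO, -0.26 ± 0.14 in ICH-Fabp4fl_fl and -0.52 ± 0.13 in ICH-Fabp4CKO. Its groups overlapped except that ICH-Fabp4CKO lay below ICH-Fabp4fl_fl. Relative to the markers, Pgf had overlapping ranges in the 4 comparisons, with group means from -2.88 to -2.28.

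The other receptor kinases were lower relative to the markers after ICH. By this measure Flt1 was 1.67 lower in ICH-Fabp4fl_fl than in its sham group and 1.15 lower in ICH-Fabp4CKO than in its sham group. Tek was lower in both genotypes too, with differences of -1.14 and -0.91, as were Kdr (-0.70 and -0.80) and Flt4 (-0.45 and -0.70), without overlap in each case. Vegfa showed the widest gap, at -2.32 and -1.29, its own level overlapping between groups where that of the markers did not. Angpt2 was 2.39 higher relative to the markers in ICH-Fabp4CKO than in Sham-Fabp4CKO without overlap, and 0.54 higher in ICH-Fabp4fl_fl with overlap. Between the 2 ICH groups the relative levels of Tek and Flt4 overlapped (differences 0.17 and -0.03), those of Kdr and Flt1 were higher in ICH-Fabp4CKO (0.38 and 0.66), and that of Tie1 was lower (-0.26). The sham groups already differed for Kdr, which was 0.48 higher relative to the markers in Sham-Fabp4CKO without overlap, while the marker mean itself was 0.22 lower there, also without overlap. The receptors were below ICH-Fabp4fl_fl in CPM, but of the 5 only Tie1 was below it relative to the mean of these 8 markers. In edgeR log2 differences, Tie1 (-1.69), Flt4 (-1.35), Tek (-1.20) and Kdr (-0.95) lay within the range of single markers, -2.15 to -0.92. Flt1 (-0.69) did not. Other reference markers were not tested.

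**Figure D4:**
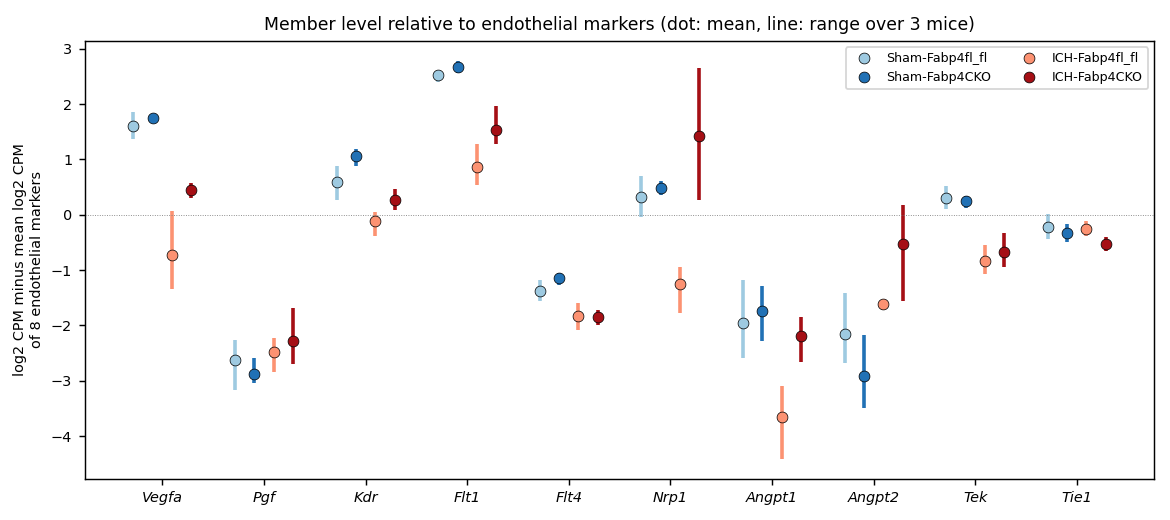
Member log2 CPM minus the mean log2 CPM of 8 endothelial markers in the same library (vertical axis), with dots for group means and lines for the range over 3 mice. Tie1 stays between -0.66 and 0.02 in the 4 groups, Vegfa and Flt1 are lower after ICH in both genotypes, and Nrp1 spans 0.27 to 2.65 in ICH-Fabp4CKO.

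**Figure D5:**
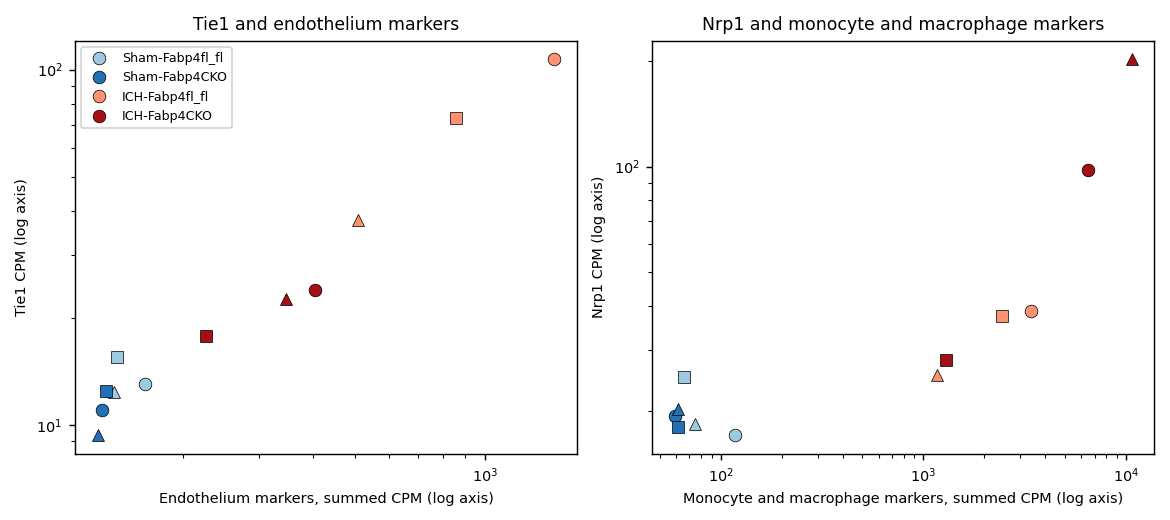
Tie1 CPM against the summed CPM of 8 endothelial markers (left) and Nrp1 CPM against the summed CPM of 6 monocyte and macrophage markers (right) on log axes, 1 point per library. Tie1 runs from 9.38 to 107 CPM along the endothelial sum, and the 2 highest Nrp1 values, 97.8 and 202 CPM, are in the libraries with the highest macrophage sums, 6502 and 10640 CPM.

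The genes most like each member over the 12 libraries, by Pearson's r of log2 CPM, are given as a description, since the libraries share groups and the r values largely follow the ICH difference. Tie1 was closest to Afap1l1 (r = 0.988) and to the endothelial genes Egfl7 (0.985) and Erg (0.984). Tek was closest to Adgrf5 (0.986), Myl9 (0.98) and Slc48a1 (0.976), Flt4 to Vwa1 (0.984), Arhgap29 (0.974) and Icam2 (0.974), and Flt1 to Ly6c1 (0.975), Bcam (0.974) and Ndufb7 (0.963). Pgf was closest to Igfbp3 (0.984), Cdk5rap3 (0.98) and Pecam1 (0.98), the endothelial adhesion gene. Kdr was nearest to Mgst2 (0.972), Hdgf (0.97) and Ece1 (0.97), Angpt2 to Cyp4f16 (0.989), Pstpip1 (0.986) and Traf3ip3 (0.986), and Nrp1 to Ipo5 (0.99), Eprs (0.982) and Clcn7 (0.981). Vegfa and Angpt1 had looser company. The nearest genes to Vegfa reached 0.798 (Msmo1), 0.795 (Sema7a) and 0.785 (Chrna5), and those to Angpt1 0.923 (Ccdc47), 0.883 (Vegfd, a gene with few counts) and 0.874 (Cdc27). When the 4 group means were removed, Pgf and Flt4 were among each other's 3 nearest genes (r = 0.966), and Afap1l1 stayed nearest to Tie1 (0.961).

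Lists of related genes were counted whole, in ICH-Fabp4fl_fl and then ICH-Fabp4CKO, each against its sham group. Among other ligands and receptors of the family, 4 of 7 tested rose in ICH-Fabp4fl_fl and 3 of 6 in ICH-Fabp4CKO, beside 26.2% and 24.5% of all genes, and none fell. Angptl4, a lipase inhibitor related to the angiopoietins, rose with log2 fold changes of 4.06 ± 0.30 and 4.10 ± 0.81, while Vegfb (0.35 ± 0.17 and -0.04 ± 0.10) and Vegfc (0.27 ± 0.43 and 0.13 ± 0.39) did not pass. Pdgfb, the ligand that recruits pericytes, rose by 1.44 ± 0.22 and 1.46 ± 0.26, and its receptor Pdgfrb by 1.03 ± 0.19 and 1.40 ± 0.35. Angpt4, with few counts, rose by 2.35 ± 0.46 in ICH-Fabp4fl_fl and was not tested in ICH-Fabp4CKO. Of the 15 receptor partners, 7 rose and 2 fell in ICH-Fabp4fl_fl, and 7 rose and none fell in ICH-Fabp4CKO. Of all genes, 26.2% and 24.5% rose and 19.3% and 11.1% fell. Cdh5, the endothelial junction cadherin, rose by 2.43 ± 0.31 and 1.35 ± 0.30, Ptprb, a phosphatase that acts on Tek, by 1.65 ± 0.24 and 0.53 ± 0.12, and Nos3, the endothelial nitric oxide synthase, by 1.98 ± 0.41 and 0.77 ± 0.22 on the log2 scale. Dok2 rose by 3.61 ± 0.64 and 4.66 ± 0.90. The median log2 fold change of the partners was 0.11 in ICH-Fabp4fl_fl and 0.53 in ICH-Fabp4CKO, beside 0.02 and 0.01 for all genes.

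Of the 13 tested endothelial genes that follow VEGF signalling, 9 rose and 1 fell in ICH-Fabp4fl_fl, and 8 rose in ICH-Fabp4CKO. Of all genes, 26.2% and 24.5% rose in these comparisons, and 19.3% and 11.1% fell. Aplnr, the apelin receptor, rose by 5.96 ± 0.66 and 4.25 ± 1.11, Cd34 by 2.19 ± 0.28 and 1.52 ± 0.18, and the chemokine receptor Cxcr4, which leukocytes also carry, by 3.42 ± 0.36 and 4.09 ± 0.62. Nr4a1, an immediate early gene that neurons express as well, fell by 1.59 on the log2 scale in ICH-Fabp4fl_fl (adjusted p = 0.000615). A list of 13 hypoxia genes held targets together with the hypoxia-inducible factor genes Hif1a and Epas1. Of these 13, 6 rose in each genotype, beside the same 26.2% and 24.5% of all genes, and none fell. Adm, which encodes the vasodilator adrenomedullin, rose by 3.15 ± 0.52 and 3.22 ± 0.43, the oxygen sensor Egln3 by 2.65 ± 0.56 and 3.18 ± 0.67, Hif1a by 0.78 ± 0.18 and 1.45 ± 0.29, and the glucose transporter Slc2a1 by 1.73 ± 0.36 and 0.78 ± 0.14. Vegfa, itself a classic hypoxia target, overlapped its sham range in the same libraries. In ICH-Fabp4CKO against ICH-Fabp4fl_fl and in sham against sham, no gene of these 4 lists was called by edgeR, beside 0% and 0.111% of all genes. After ICH, 9 of the 49 tested were lower and 2 higher at an unadjusted p under 0.05, beside 5.82% and 6.36% of all genes. DESeq2 called 5, Apln, Cd34, Plvap, Ptprb and Slc2a1, beside 1.84% of all genes called lower and 1.47% called higher. The edgeR log2 differences of the 5 were -1.01 ± 0.20, -1.08 ± 0.28, -0.87 ± 0.23, -1.31 ± 0.25 and -1.23 ± 0.36. In sham, 5 of 45 were lower and 2 higher at that unadjusted p, beside 10.2% of all genes in either direction. DESeq2 called 0 of them, beside 0.974% of all genes.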

How the data were processed

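The authors deposited a table of estimated counts per gene with no normalization, 1 column per library, from poly(A) RNA sequenced on an Illumina instrument; 7.36 to 8.69% of values are not whole, and they were rounded. The submitters' processing notes name HISAT2, Bowtie2 2.2.8, StringTie 1.3.1 and DESeq2 without roles; the genome build is not given in the sources used here. The library kit is not stated to keep strand, so overlapping antisense genes are not separated.

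Counts were normalized by TMM and tested with edgeR 4.0.16 (R 4.3.3) quasi-likelihood F tests, 3 against 3 libraries, after filterByExpr (minimum count 10, minimum total 15), with Benjamini-Hochberg adjustment over all genes and a threshold of 0.05. The interaction used all 12 libraries. SEs are the log2 fold change over the root of F, and 95% intervals use the fit's degrees of freedom. CPM are TMM-normalized, with a prior count of 2 on the log2 scale. Ratios used counts plus 0.5 and exact permutation tests. Exon lengths came from GENCODE M21. DESeq2 1.42.0, other normalizations, filters, the replicate number as a block and leaving out each mouse were alternatives. The procedure was tested on simulated data with known changes. For ICH-Fabp4CKO against ICH-Fabp4fl_fl it called 1 of 108 true 2-fold and 50 of 91 true 4-fold changes, and 2 unchanged genes. For ICH-Fabp4fl_fl against Sham-Fabp4fl_fl it called 22 of 93 and 88 of 103, and 4 unchanged genes. The 93 and 103 were the changed genes among 14719, whereas 45.6% of all genes were called in the real libraries. How many true changes are called at such a share was not tested.

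All 10 members were named, with up to 4 genes per list (smallest p in ICH-Fabp4fl_fl against Sham-Fabp4fl_fl), Fabp4, and the 3 genes most like each member. Vegfb and Vegfc were added for their role, and Apln, Plvap and Sparc for a DESeq2 call, after their values were seen. The members and lists were chosen with earlier results of these data known. No 2 libraries agreed within sampling noise.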

Additional observations from a re-analysis of the deposited data

How the results depend on the processing

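In ICH-Fabp4fl_fl against Sham-Fabp4fl_fl, 8 members were called, 7 with all 12 libraries in 1 fit, and 6 to 8 when a mouse was left out. The share of all genes called was 45.6%, 49.0% with all 12 libraries, and 28.0% to 54.7% when a mouse was left out. In ICH-Fabp4CKO against Sham-Fabp4CKO, 4 were called and leave-one-out gave 0 to 6, beside 35.6% and 5.03% to 67.5% of all genes. In ICH-Fabp4CKO against ICH-Fabp4fl_fl, 0 were called by edgeR in the full fit and with any mouse left out, 3 by DESeq2 and 4 with all 12 libraries in 1 fit, beside 3.31% and 2.40% of all genes tested. Leave-one-out gave 0 to 1 calls in sham against sham and 0 to 1 for the interaction. The share of all genes called in these fits ran from 0 to 19.6% and from 0 to 2.42%.

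The Flt1 to Kdr ratio after ICH, -0.66, missed the threshold with the replicate number as a block (exact permutation p = 0.0625) and ranged from -0.82 to -0.56 when a mouse was left out. Between the genotypes after ICH, leave-one-out ranges crossed 0 for Angpt2 to Angpt1 (-0.79 to 0.31) and Flt1 to Kdr (-0.028 to 0.49). Of the member values with no call, Flt1 in ICH-Fabp4CKO against sham turned to -0.0094 with relative log expression scaling, -0.072 with unscaled totals, -0.013 with DESeq2 and -0.011 without a filter, and Flt4 in sham against sham to -0.018 with unscaled totals. Leave-one-out ranges also crossed 0 for Vegfa in ICH-Fabp4fl_fl against sham (-0.24 to 0.011), in ICH-Fabp4CKO against sham (-0.31 to 0.0077), in sham against sham (-0.22 to 0.033) and in the interaction (-0.27 to 0.042). The same held for Flt1 in ICH-Fabp4CKO against sham (-0.042 to 0.047), for Angpt1 and Angpt2 in ICH-Fabp4CKO against ICH-Fabp4fl_fl (-0.15 to 0.40 and -0.38 to 0.39), for Flt4, Nrp1 and Angpt1 in sham against sham (-0.12 to 0.080, -0.17 to 0.13 and -0.36 to 0.37) and for the Angpt1 interaction (-0.32 to 0.43). The cause was not tested.

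Same-numbered mice did not deviate together (correlations per pair from -0.575 to 0.311), so the numbers are not read as pairs. With the replicate number as a block, 8, 3, 0, 0 and 0 members were called in the 5 comparisons, in the text's order. Nrp1 in ICH-Fabp4CKO against sham lost its call (adjusted p = 0.0567). Of all genes, 49.3% were called with this block in ICH-Fabp4fl_fl against sham. In ICH-Fabp4CKO against sham the share of all genes called higher fell from 24.5% to 17.5%. The share called was 0% in ICH-Fabp4CKO against ICH-Fabp4fl_fl, 0.0764% in sham against sham and 0.00663% for the interaction. With 3 mice a group, a member that missed the threshold is not shown to be unchanged.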

Other observations

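A list of 12 genes was counted as well, made of matrix proteases and heparanase, matricellular proteins and the vasohibins Vash1 and Vash2, which are regulators of vessel growth. In ICH-Fabp4fl_fl against Sham-Fabp4fl_fl 10 of 12 rose and none fell, beside 26.2% of all genes, with a median log2 fold change of 2.19 over the list. In ICH-Fabp4CKO against Sham-Fabp4CKO 10 of 12 rose, beside 24.5%. Thbs1, an inhibitor of vessel growth that binds VEGF, rose by 5.18 ± 0.67 and 6.86 ± 0.69 on the log2 scale, and Ccn1, a matricellular protein, by 3.93 ± 0.34 and 3.09 ± 0.36. Mmp14, a membrane protease, rose by 1.76 ± 0.22 and 3.06 ± 0.61, and Hpse, the heparanase that frees heparin-bound growth factors, by 4.45 ± 0.59 and 7.90 ± 1.04. Monocyte and macrophage markers summed to 66.0 to 118 CPM in Sham-Fabp4fl_fl and 1170 to 3410 CPM in ICH-Fabp4fl_fl, and to 59.5 to 61.7 and 1296 to 10640 CPM in Sham-Fabp4CKO and ICH-Fabp4CKO. Their part in the list's counts was not tested. Between the genotypes after ICH, edgeR called no gene of the list. At an unadjusted p under 0.05, 1 was lower and 1 higher, beside 5.82% and 6.36% of all genes. DESeq2 called 1, Sparc, a matrix protein that binds VEGF (edgeR log2 difference -0.74 ± 0.24), beside 3.31% of all genes.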
